A study of Mus musculus with 11 samples.

Results

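Integrins, laminins and other basement membrane genes were described in vascular endothelial cells sorted from the mouse retina. The members were the protein-coding genes whose symbols name an integrin alpha chain, an integrin beta chain from Itgb1 to Itgb8 or a laminin alpha, beta or gamma chain, together with Nid1, Nid2, Hspg2, Agrn, Fn1 and Sparc. This gave 43 of the 55359 genes counted: 26 integrin chains, 11 laminin chains and 6 linkers and other matrix genes. Of these, 36 passed the filter on low counts and were tested, and 7 (Itga11, Itgam, Itgax, Itgad, Itgb6, Itgb8 and Lamb3) did not.

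Integrins are receptors made of 1 alpha and 1 beta chain, and the pairing sets which matrix protein is bound. Laminins are trimers of an alpha, a beta and a gamma chain that form the sheet of the vascular basement membrane, where nidogens, perlecan (Hspg2) and agrin (Agrn) link them to type IV collagen and to cells. In retinal vessels, endothelial cells, pericytes and glia share this sheet, and growing vessels also lay down fibronectin (Fn1).

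The mice were C57BL/6 in the oxygen-induced retinopathy (OIR) model, in which pups kept in high oxygen lose retinal capillaries and later grow abnormal vessels in room air. At postnatal day 12 an eye injection into the vitreous of 0.5 µL held either oncostatin M (OSM, a cytokine of the interleukin 6 family, 100 ng/µL; 5 mice) or phosphate-buffered saline (PBS; 6 mice), and at day 17 the CD31+ CD45- cells were sorted. Both retinas of 1 mouse made 1 sample, and the labels give 1 treatment per mouse. The methods of the study describe PBS in the other eye, and whether that held for these mice is not given in the sources used here. Litter 1 had 2 OSM and 2 PBS mice, litter 2 likewise, and litter 3 had 1 OSM and 2 PBS mice. Each litter was also 1 run of the OIR model, so litter and run cannot be told apart. The OSM mice were numbers 1, 2, 5, 6 and 9, and the PBS mice 3, 4, 7, 8, 10 and 11.

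Total counts ran from 26697990 to 56033479 per mouse. Endothelial markers (Pecam1, Cdh5, Kdr, Tie1, Tek, Cldn5, Emcn, Erg and Esam) had reads in every mouse and summed to 11560 to 15080 CPM (counts scaled to the size of the library), and the leukocyte list of 14 genes to 0.592 to 90.5 CPM, with its highest sums in PBS mice 4 and 3 (90.5 and 40.1 CPM). The rod photoreceptor list summed to 177 to 4566 CPM and the mural cell list (pericyte and smooth muscle genes) to 310 to 1736 CPM. These are bulk samples, in which fewer cells of a type and less RNA per cell cannot be told apart.

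Levels are given as RPKM, the CPM of a gene scaled by edgeR's TMM factors and divided by its exon length in kilobases, so that genes of different length can be compared, with the SD over 11 mice. The members spanned almost the whole range of expression. Of the 43, 7 were at or above 100 RPKM on average, 15 at or above 10, 26 at or above 1, and 17 were below 1. Among all 54749 genes with a length, 3 members ranked in the first 100 (Sparc, Itgb1 and Fn1) and 10 in the first 500. Together they held 2.63% to 3.45% of the scaled reads of a mouse, of which Sparc alone took 1.39% to 1.64%.

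**Figure D1:**
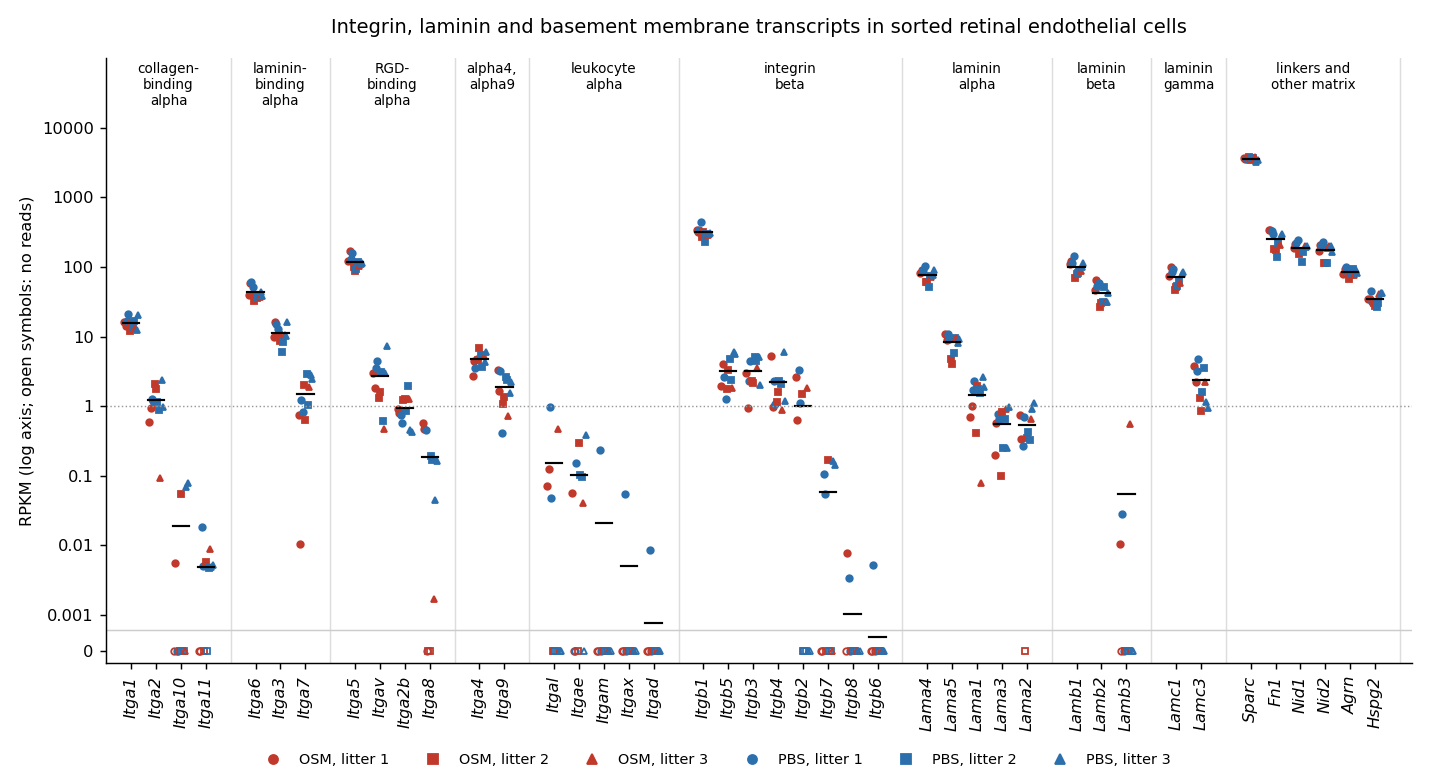
Level of 42 of the 43 members in each mouse, in RPKM on a log axis, grouped by role; colour gives the treatment, symbol shape the litter, the black line the mean over 11 mice, and open symbols at the foot mice without reads. Sparc lies near 3608 RPKM, Itgb1 near 316 and Fn1 near 257, while the leukocyte alpha chains lie below 1.

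Among the beta chains, Itgb1 (ENSMUSG00000025809, GRCm39 chromosome 8, 129411876 to 129460618), the partner of most matrix-binding alpha chains, stood far above the rest. It measured 345, 324, 269, 322 and 285 RPKM in OSM mice 1, 2, 5, 6 and 9, and 232 to 440 RPKM (median 305) in the PBS mice. All 5 OSM values lay inside the PBS range. Itgb1 made up 96.9% ± 1.17 (SD, n = 11) of the summed beta chain RPKM. Itgb5 (3.21 ± 1.63 RPKM) and Itgb3 (3.20 ± 1.41 RPKM), whose products join the alpha v chain, followed at similar levels. Their mean log2 difference (Itgb5 minus Itgb3) was -0.02 ± 1.13 (SD) and was not distinguished from 0 (exact sign-flip permutation test over 11 mice, two-sided, adjusted p = 0.967). Itgb4, the hemidesmosome chain, had 2.25 ± 1.75 RPKM and lay below Itgb3 (adjusted p = 0.0408, exact sign-flip permutation test, 8 of 11 mice). Itgb6 had 1 read in all, in PBS mouse 3, and Itgb8 had 4, with 3 in OSM mouse 2 and 1 in PBS mouse 3.

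The alpha chains were led by Itga5 (ENSMUSG00000000555, chromosome 15, 103252713 to 103275270), the fibronectin receptor chain. It measured 124, 172, 98.3, 86.5 and 102 RPKM in OSM mice 1, 2, 5, 6 and 9, and 92.4 to 159 RPKM (median 116) in the PBS mice. The highest and the lowest value both belonged to OSM mice, one in litter 1 and the other in litter 2. Itga5 held 58.3% ± 3.49 of the summed alpha chain RPKM. The other chains of the class that reads the RGD motif in matrix proteins were much lower: Itgav 2.74 ± 1.96, Itga2b (the platelet chain) 0.942 ± 0.445 and Itga8 0.187 ± 0.213 RPKM. The ratio of Itga5 to Itgav was above 1 in 11 of 11 mice, with a mean of 5.79 ± 1.16 on the log2 scale.

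Itga6 (ENSMUSG00000027111, chromosome 2, 71575960 to 71689757), a laminin receptor chain, was next. It measured 39.0, 58.9, 32.4, 39.9 and 37.4 RPKM in the OSM mice, in the same order, and 35.6 to 60.6 RPKM (median 41.5) in the PBS mice, and the groups overlapped over most of their range. Itga3, which also binds laminins, had 11.3 ± 3.34 RPKM, and Itga6 was above it in 11 of 11 mice by 1.98 ± 0.34 on the log2 scale. Itga7, another laminin-binding chain, had 1.499 ± 0.959 RPKM.

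Of the collagen-binding chains only Itga1 (ENSMUSG00000042284, chromosome 13, 115089632 to 115238677), a receptor for type IV collagen, was above 10 RPKM. It measured 16.2, 14.3, 11.9, 15.0 and 13.2 RPKM in the OSM mice and 12.5 to 21.3 RPKM (median 16.7) in the PBS mice. The lowest value was an OSM mouse of litter 2 and the highest a PBS mouse of litter 1. Itga2 had 1.21 ± 0.654 RPKM, and Itga11 had at most 3 reads in any mouse. Itga10 had 1 and 8 reads in OSM mice 2 and 6 and 12 and 13 in PBS mice 10 and 11, and none in the other mice. Itga4, whose product binds fibronectin and VCAM1, measured 2.71, 4.45, 4.67, 6.75 and 5.26 RPKM in the OSM mice and 3.54 to 5.93 RPKM (median 4.51) in the PBS mice, and the OSM mice held both ends of the range. Itga9 was lower, at 1.85 ± 0.954 RPKM.

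Among the 28 members with reads in all mice, 19 pairs of neighbours in the order of levels within a role class were compared, and 16 differed beyond their spread over mice (exact sign-flip permutation test, two-sided, adjusted p under 0.05). The order itself was taken from the mean RPKM over the same 11 mice, so the pairs were not chosen independently of the values tested. The smallest p that 11 mice allow is 0.000977, and it was reached by 13 of the 19 pairs. The 3 pairs that did not pass were Itgb5 and Itgb3, Lama1 and Lama3 (adjusted p = 0.0502, exact permutation) and Nid1 and Nid2 (adjusted p = 0.0608, exact permutation).

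The leukocyte chains gave few reads. Itgal, which pairs with Itgb2 on white blood cells, had 16, 28, 0, 0 and 172 reads in OSM mice 1, 2, 5, 6 and 9, and 168 and 10 reads in PBS mice 3 and 4, with none in the other PBS mice. Itgb2 had 299, 70, 143, 0 and 328 reads in the OSM mice, and 279 and 115 reads in PBS mice 3 and 4, with none in the other PBS mice. Both genes were thus read in all mice of litter 1 and in only 1 or 2 mice of the other litters together. Itgam, Itgax and Itgad were read in PBS mouse 3 alone, with 31, 7 and 1 reads. The leukocyte markers did not follow the same order. PBS mouse 3 had 40.1 CPM of them and the most genes with reads (20898), but PBS mouse 4, with the highest sum (90.5 CPM), had no read of these 3 genes. OSM mice 9 and 1, with the most Itgb2 reads, had sums of 1.14 and 2.53 CPM. Ptprc, which encodes CD45, had reads in 5 mice with at most 22. The part of residual leukocytes in these reads was not tested. Itgae, the chain of T cells that lodge in epithelia, had 12, 53 and 14 reads in OSM mice 1, 6 and 9 and 30, 21, 21 and 77 in PBS mice 4, 7, 8 and 11. Itgb7, its partner, had 14 reads in OSM mouse 6 and 8, 5, 16 and 13 in PBS mice 3, 4, 10 and 11. The only mice with reads of both chains were OSM mouse 6 and PBS mice 4 and 11.

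Presence in some mice and absence in others also marked chains with no link to leukocytes. Of the 43 members, 28 had reads in all 11 mice and 15 in some mice only. Lamb3, a chain of the main epithelial laminin, had 257 reads in OSM mouse 9, 3 in OSM mouse 1 and 6 in PBS mouse 3. It had no read in any of the other mice. Itga8, a chain of mural and mesangial cells, had 216 and 173 reads in OSM mice 1 and 2 and 127 in PBS mouse 3, 1 to 68 in each of mice 7 to 11, and none in PBS mouse 4 and OSM mice 5 and 6. Lama2 had 126 to 657 reads in 10 mice and none in OSM mouse 5, which has 29136344 counts. The libraries were amplified by PCR and carried no molecular identifiers, so a high read count need not mean many molecules.

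Which receptors could form was read from the lower of the 2 chains in each mouse, since a pair cannot exceed its scarcer chain if RNA and protein follow each other, which was not measured. Of 24 known pairs, 12 had a lower chain at or above 1 RPKM and 4 at or above 10. Those 4 all contained Itgb1: with Itga5 (118 ± 26.6 RPKM), Itga6 (43.5 ± 9.49), Itga1 (15.6 ± 3.03) and Itga3 (11.3 ± 3.34). In each of the 4, the alpha chain was the scarcer in 11 of 11 mice. Itgb1 was even above the sum of its 12 alpha partners in 11 of 11 mice, by 0.66 ± 0.19 on the log2 scale.

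The pairs of alpha v with Itgb3 and Itgb5 were more evenly matched. With Itgb1, Itgav was the scarcer chain in 11 of 11 mice (2.74 ± 1.96 RPKM). Its pairs with Itgb6 and Itgb8 were limited by the beta chain, at 0.00047 and 0.0010 RPKM on average. Itgav was below Itgb3 in 7 of 11 mice and below Itgb5 in 7 of 11 mice, and the lower chain averaged 2.07 ± 1.24 RPKM for Itgav with Itgb3 and 2.11 ± 1.43 for Itgav with Itgb5. The pair of Itga6 and Itgb4, known from epithelial hemidesmosomes, was limited by Itgb4 in every mouse. The leukocyte pair of Itgal and Itgb2 had 0.152 ± 0.304 RPKM by its lower chain.

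**Figure D2:**
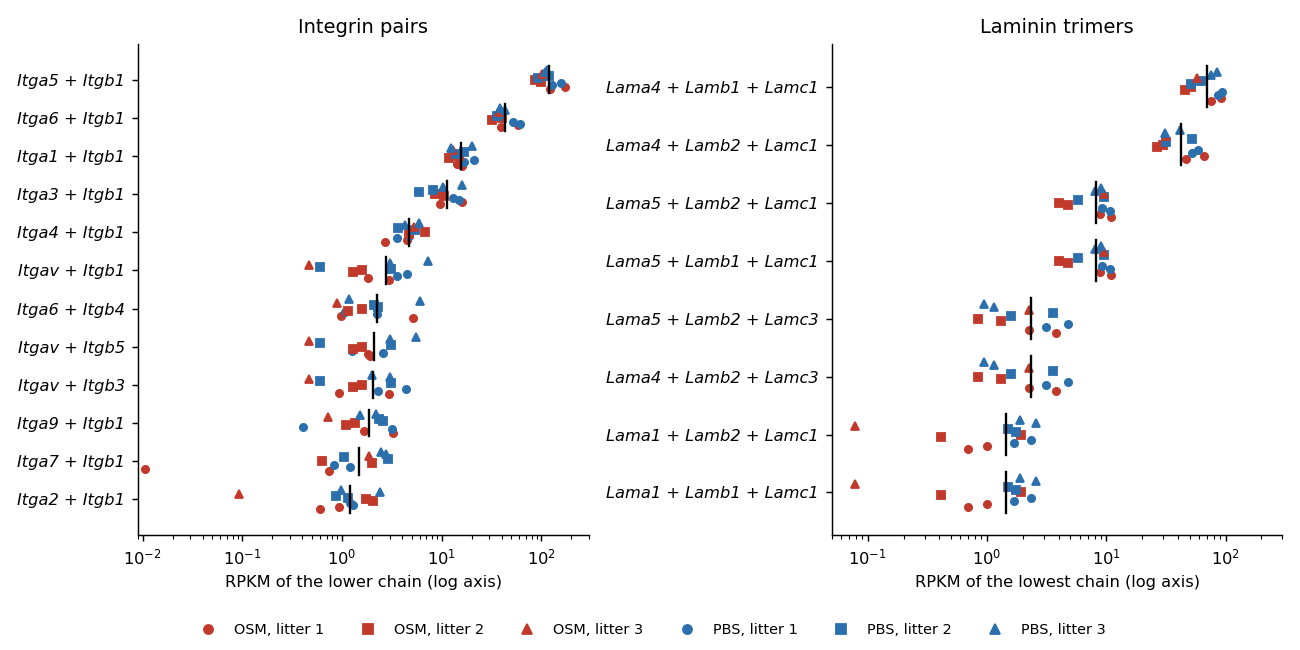
Level of the scarcer chain, in RPKM on a log axis, for the 12 integrin pairs and the 8 laminin trimers whose mean was at or above 1 RPKM; each symbol is a mouse and the black bar the mean. The pairs of Itgb1 with Itga5 and Itga6 lead, as do the trimers of Lama4 and Lamc1 with either Lamb1 or Lamb2.

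Among the laminins, 1 chain of each kind was dominant. Lama4 (ENSMUSG00000019846, chromosome 10, 38841141 to 38998403), the alpha chain typical of endothelial laminins, measured 83.0, 91.4, 60.3, 61.7 and 70.9 RPKM in OSM mice 1, 2, 5, 6 and 9, and 50.9 to 103 RPKM (median 83.3) in the PBS mice. All OSM values lay inside the PBS range. Lama4 held 87.8% ± 1.89 of the summed laminin alpha RPKM, and Lama5, the other vascular alpha chain, 9.27% ± 1.82. Lama1, Lama2 and Lama3 each had less than 2 RPKM on average (1.44, 0.528 and 0.557).

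Lamc1 (ENSMUSG00000026478, chromosome 1, 153094597 to 153208774), the gamma chain of most laminins, held 96.8% ± 1.53 of the gamma RPKM. The beta chains were less one-sided. Lamb1 (ENSMUSG00000002900, chromosome 12, 31315030 to 31379658) held 70.6% ± 3.64 and Lamb2 29.3% ± 3.68, and Lamb1 was above Lamb2 in 11 of 11 mice by 1.28 ± 0.25 on the log2 scale. By the scarcest chain, the trimer of Lama4, Lamb1 and Lamc1 came first at 70.3 ± 17.3 RPKM, followed by that of Lama4, Lamb2 and Lamc1 at 42.7 ± 13.4. The 2 trimers of Lama5 with Lamc1 were both limited by Lama5 at 8.23 ± 2.35 RPKM.

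The size of these ratios depends on the length used. With the longest annotated transcript in place of all exons, Lama4 was 19.3-fold above Lama5 and not 9.66-fold, and Lamb1 4.05-fold above Lamb2 and not 2.42-fold. Lama4 exceeded Lama5 and Lamb1 exceeded Lamb2 in 11 of 11 mice by either length.

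Sparc (ENSMUSG00000018593, chromosome 11, 55285317 to 55314067), a secreted protein that binds collagen and calcium, was the highest member and the 6th highest of all genes with a length. It measured 3657, 3626, 3841, 3512 and 3797 RPKM in OSM mice 1, 2, 5, 6 and 9, and 3251 to 3717 RPKM (median 3604) in the PBS mice. The lowest value was 3251 RPKM in PBS mouse 10 and the highest 3841 RPKM in OSM mouse 5. Its coefficient of variation over 11 mice was 4.74%, the lowest of the 17050 genes tested, whose median was 45.1%. It was also the lowest with DESeq2's size factors and with library totals only, and ranked 1 to 4 when any 1 mouse was left out. Agrn, a heparan sulfate proteoglycan, was the next steadiest member at 11.9%, and Fn1 was among the more variable high members at 28.6%.

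The comparison of OSM with PBS asked whether these transcripts changed 5 days after the injection. No member was called. None of the 36 members tested had an adjusted p under 0.05 in edgeR's quasi-likelihood test with litter as a term, and neither did any of the 17050 genes tested (0%). Before adjustment, 4 of 36 members had p under 0.05, against 4.96% of all genes tested: Lamb1, Lamc1 and Lama1 were lower in OSM mice and Itgb2 higher, against 2.71% of all genes lower and 2.25% higher. Every one of the 4 had an adjusted p of 0.955. Leaving out 1 mouse in turn gave 0 to 6 such members, with 0 without OSM mouse 5 and 1 without OSM mouse 9, and 2 without OSM mouse 1 or PBS mouse 8, 10 or 11. In no member did the OSM and PBS mice separate without overlap, against 0.411% of all genes.

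The high members differed little between the treatments. For the 15 members at or above 10 RPKM, the log2 difference (OSM minus PBS) lay between -0.27 (Itga1) and 0.05 (Sparc), with standard errors from 0.05 to 0.21. For Itgb1 it was -0.06 ± 0.10 (SE), for Itga5 -0.09 ± 0.11, for Itga6 -0.13 ± 0.11, for Lama4 -0.13 ± 0.10, for Fn1 -0.08 ± 0.12 and for Nid1 -0.0003 ± 0.10. Of the 36 members, 28 were fitted lower and 8 higher in OSM mice, where 51.6% of all genes tested were fitted lower. The median log2 difference was -0.20 over the members and -0.01 over all genes. The members are not independent of one another, and no test was made on these counts. Red cell markers moved the other way. All 5 (4 hemoglobin genes and Alas2, an enzyme of heme synthesis) were fitted higher in OSM mice with an unadjusted p under 0.05, with a median log2 difference of 1.12 and an adjusted p of 0.955 each in edgeR. They summed to 358 to 1128 CPM in OSM and 117 to 596 CPM in PBS mice, and within every litter each OSM mouse lay above each PBS mouse. Their part in the members' values was not tested.

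**Figure D3:**
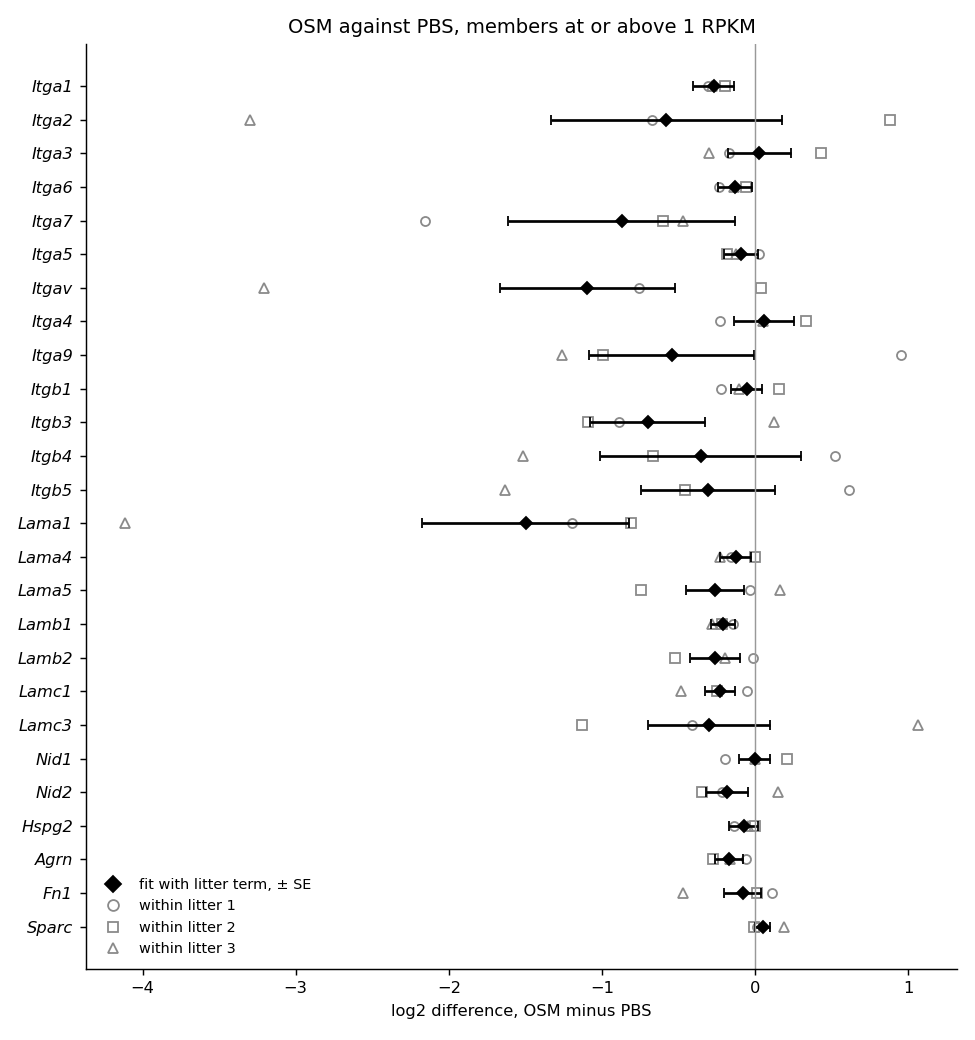
Log2 difference between OSM and PBS mice for the 26 members at or above 1 RPKM; black diamonds give the fit with litter as a term ± SE, and open symbols the difference of means within each litter. Lamb1 and Lamc1 lie left of 0 in every litter but close to it, and Lama1 lies furthest left.

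Lamb1 measured 109, 123, 69.0, 78.5 and 87.5 RPKM in OSM mice 1, 2, 5, 6 and 9, and 80.9 to 143 RPKM (median 107) in the PBS mice. The OSM mice of litters 1 and 3 lay within the PBS range, and the 2 OSM mice of litter 2 lay below it. The log2 difference was -0.21 ± 0.08 (SE; edgeR quasi-likelihood test, unadjusted p = 0.0254, adjusted p = 0.955). Within litters 1, 2 and 3 the difference of means was -0.14, -0.22 and -0.28.

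Lamc1 measured 75.0, 98.6, 45.9, 51.3 and 58.1 RPKM in the OSM mice and 53.5 to 92.6 RPKM (median 81.3) in the PBS mice. The highest value of all 11 mice was that of OSM mouse 2, while 2 OSM mice of litter 2 lay below every PBS mouse. The log2 difference was -0.23 ± 0.10 (edgeR, unadjusted p = 0.0424, adjusted p = 0.955), and -0.05, -0.25 and -0.48 within litters 1, 2 and 3. Lamb1 and Lamc1 encode chains of the same trimers, and their alpha partner, Lama4, had -0.16, -0.0025 and -0.23 in the 3 litters.

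Lama1, an alpha chain of embryonic and retinal surface basement membranes, was low in all mice. It measured 0.692, 1.00, 0.413, 1.92 and 0.0791 RPKM in OSM mice 1, 2, 5, 6 and 9, and 1.52 to 2.60 RPKM (median 1.82) in the PBS mice. Of the 5 OSM mice, 4 lay below every PBS mouse and OSM mouse 6 lay within the PBS range. The log2 difference was -1.499 ± 0.68 (edgeR, unadjusted p = 0.0490, adjusted p = 0.955), with -1.20, -0.81 and -4.11 within litters 1, 2 and 3, the last resting on 43 reads in OSM mouse 9. Mural cell markers were fitted in the same direction. All 10 were fitted lower in OSM mice, 1 of them with unadjusted p under 0.05 in edgeR, and the median log2 difference was -0.74. Their sum was 410 to 831 CPM in OSM and 310 to 1736 CPM in PBS mice. Within litter 2, only Cspg4, Notch3 and Des were lower in OSM mice, and the other mural markers were higher. The mural sums in litter 2 were 614 and 831 CPM in OSM and 1139 and 310 CPM in PBS mice. Fibroblast markers (4 of 5 genes tested, 9.57 to 47.9 CPM in OSM and 17.3 to 91.3 CPM in PBS mice) had a median of -0.97. Markers of Müller glia and astrocytes (4 of 6 genes tested, 188 to 337 CPM in OSM and 161 to 297 CPM in PBS mice) had a median of -2.02. Of these, 3 (Rlbp1, Slc1a3 and Gfap) were fitted lower and lacked reads in some mice, and Glul (237 CPM on average) had 0.03. No gene of these lists was at 0 in all 11 mice. The part of other cell types in the Lama1 values was not tested.

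Itgb2 was the member with the largest fitted difference, and its groups overlapped widely. Its mean was 1.32 ± 1.03 RPKM in OSM and 0.729 ± 1.32 in PBS mice, and the highest value of all, 3.26 RPKM, was in PBS mouse 3. The fitted log2 difference of 6.38 ± 2.87 (edgeR, unadjusted p = 0.0484, adjusted p = 0.955) rested on mice without reads and is no measure of size. Within litter 1, where every mouse had reads, the difference was -0.49, and in litters 2 and 3, where no PBS mouse had reads, it was 1.71 and 3.67. DESeq2 without the filter called Itgb2 (log2 difference 8.33 ± 1.96, adjusted p = 0.00485) and no other member. It called 0.757% of the 22207 genes to which it gave an adjusted p. edgeR without the filter called only Itgav, the alpha v chain (-1.10 ± 0.28, adjusted p = 0.04998), against 0.225% of all genes. Within litters 1, 2 and 3 the difference for Itgav was -0.76, 0.04 and -3.21, the last resting on 1 OSM mouse. Among the PBS mice, Itgav was lowest in mouse 8 (0.607 RPKM) and highest in mouse 11 (7.25 RPKM), and so was the mural cell sum (310 and 1736 CPM). Among the OSM mice the extremes differed. Itgav was lowest in mouse 9 (0.471 RPKM) and highest in mouse 1 (2.99 RPKM), with mural sums of 432 and 490 CPM. The mural sum was lowest in mouse 2 (410 CPM) and highest in mouse 6 (831 CPM), with Itgav at 1.83 and 1.59 RPKM. The part of mural cells in the Itgav values was not tested.

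The difference had the same sign in all 3 litters in 11 of 36 members, against 23.1% of all genes tested, and it was negative in all 11: Itga1, Itga6, Itga7, Itgae, Lama1, Lama4, Lamb1, Lamb2, Lamc1, Hspg2 and Agrn. Laminin chains made up 5 of the 11, and 11 of all 43 members (Lamb3 was not tested). The 23.1% counts genes of either sign. Litter 3 has 1 OSM mouse, so its value rests on that mouse. A direct test of the litter by treatment interaction called no member and no gene (0%), and 3 of 36 members had an unadjusted p under 0.05, against 6.42% of all genes. They were Itga2, Lama1 and Lamc3 (adjusted p = 0.532, 0.639 and 0.758 in edgeR), with differences of -3.30, -4.11 and 1.06 in litter 3. DESeq2 called Itga2 and Lama1 in this test (4.69% of the 14352 genes to which it gave an adjusted p). edgeR without the filter called Itgav and Itgb2 (1.05% of all genes).

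Genes that work with the members were not called either, and nor was any other of the 17050 genes tested (0%). Of 23 genes of integrin activation and focal adhesions, 21 were tested and none was called. Only Tln1 (talin, which switches integrins on) had an unadjusted p under 0.05, with a log2 difference of -0.28 ± 0.10 (edgeR, adjusted p = 0.955). Of 21 other basement membrane genes and laminin receptors, 20 were tested and none was called. Col18a1 (-0.40 ± 0.11) and Col4a2 (-0.22 ± 0.09), which encode basement membrane collagens, had unadjusted p under 0.05 in edgeR, both lower and both with an adjusted p of 0.955. Of all genes tested, 4.96% had an unadjusted p under 0.05, and 2.71% had it and were lower in OSM mice.

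More members had a low p for litter than for treatment. In the test of both litter terms together, 13 of 36 members had an unadjusted p under 0.05, against 10.3% of all genes tested. All 13 were lower in litter 2 than in litter 1, a pattern shown by 5.78% of all genes. They were Itga3, Itga5, Itga6, Itgb1, Lama4, Lama5, Lamb1, Lamb2, Lamc1, Nid1, Nid2, Hspg2 and Fn1, among them 12 of the 15 members at or above 10 RPKM. The 3 high members outside the list were Itga1, Agrn and Sparc. Sparc was level over the litters, at 3623 ± 49.0, 3687 ± 136 and 3484 ± 282 RPKM in litters 1, 2 and 3.

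After adjustment, no member was called in the main test (0.0176% of all genes were). The lowest adjusted p was 0.0783, for Lamb1 and Lamc1, followed by 0.0861 for Fn1. Without PBS mouse 8, Nid2 and Fn1 were called (both with an adjusted p of 0.0485). The call also depends on the method. edgeR without the filter called 13 members (2.16% of all genes). DESeq2 called 10 (6.88% of the 14352 genes to which it gave an adjusted p), and those 10 were all among the 13. The 10 were Itga5, Itga6, Lama4, Lamb1, Lamb2, Lamc1, Nid1, Nid2, Hspg2 and Fn1.

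Fn1 (ENSMUSG00000026193, chromosome 1, 71624673 to 71692419) had the largest litter difference among the high members. It measured 339, 346, 333 and 303 RPKM in mice 1 to 4 of litter 1, 183, 174, 140 and 223 RPKM in mice 5 to 8 of litter 2, and 208, 282 and 295 RPKM in mice 9 to 11 of litter 3. Every litter 1 mouse lay above every other mouse, and within litter 2 the OSM mice lay between the PBS mice. The log2 difference between litter 2 and litter 1 was -0.88 ± 0.14 (SE).

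Lamc1 measured 75.0, 98.6, 86.0 and 92.6 RPKM in litter 1, 45.9, 51.3, 53.5 and 62.0 RPKM in litter 2, and 58.1, 78.0 and 84.6 RPKM in litter 3. Lamb1 measured 109, 123, 115 and 143 RPKM in litter 1, 69.0, 78.5, 80.9 and 90.6 RPKM in litter 2, and 87.5, 99.5 and 114 RPKM in litter 3. In both genes litter 1 lay wholly above litter 2, with litter 3 between them on average. The log2 difference between litter 2 and litter 1 was -0.74 ± 0.11 for Lamc1 and -0.62 ± 0.09 for Lamb1. Lama4, their partner, had -0.58 ± 0.11, the nidogens Nid1 and Nid2, which tie laminin to collagen, -0.53 ± 0.12 and -0.62 ± 0.16, and the receptor chains Itga5, Itga6 and Itgb1 -0.56 ± 0.13, -0.51 ± 0.13 and -0.37 ± 0.12.

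**Figure D4:**
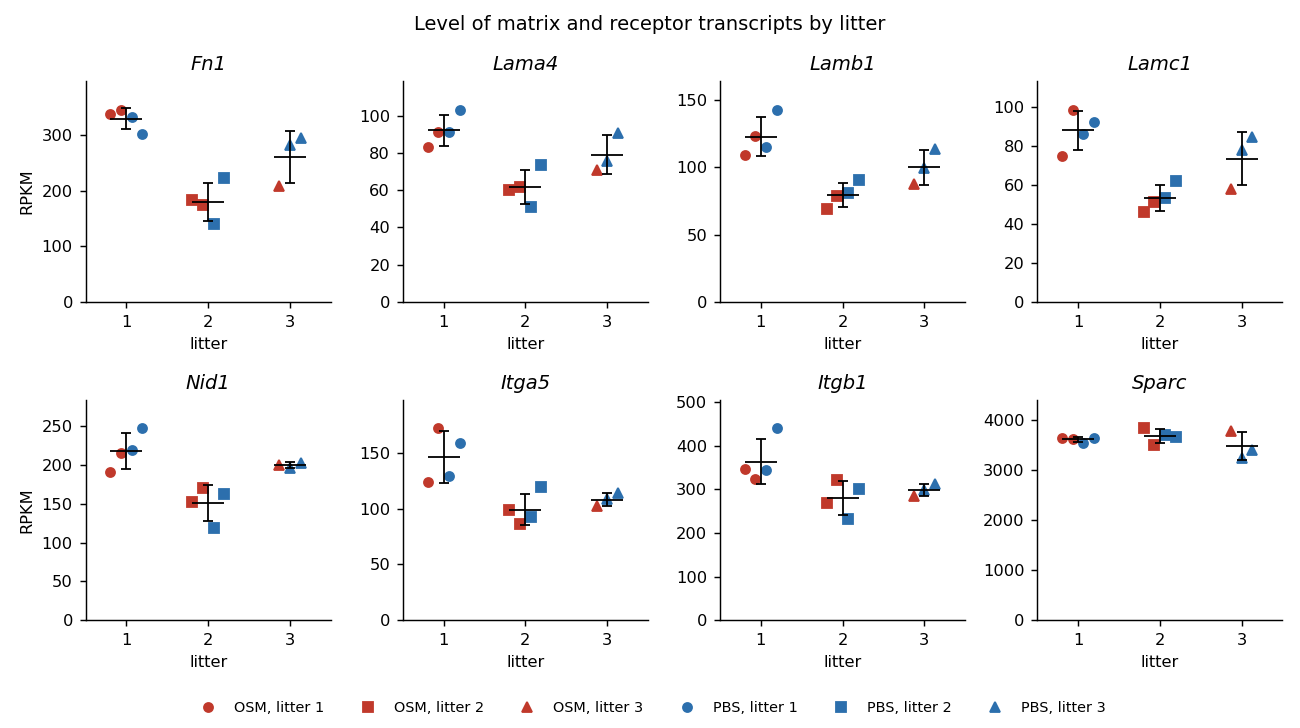
RPKM of 8 members by litter; each symbol is a mouse, coloured by treatment, and the black line and bar give the mean ± SD of the litter. The means of the 7 other genes are highest in litter 1 and lowest in litter 2, while those of Sparc lie between 3484 and 3687 RPKM.

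In 9 of 36 members every litter 1 mouse lay above every litter 2 mouse, against 3.65% of all genes: Itga5, Itgb1, Itgal, Lama4, Lamb1, Lamc1, Nid1, Hspg2 and Fn1. In Itgal the litter 2 mice had no reads. Hspg2 was the exception to the order of the litters, since its mean was 36.5 RPKM in litter 1, 28.6 in litter 2 and 41.8 in litter 3. The median log2 difference between litter 2 and litter 1 was -0.51 over the 36 members and 0.00 over all genes tested, and that between litter 3 and litter 1 was -0.13 over the members.

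The other basement membrane genes, taken as a sum, were also highest in litter 1. Col4a1 and Col4a2, the chains of vascular type IV collagen, and Sparcl1, a relative of Sparc, each had an adjusted p of 0.0543 for litter. These genes had the highest means of the list (7572, 4129 and 2743 CPM) and made up most of its sum. The basement membrane list summed to 21000 to 23440 CPM in litter 1, 12020 to 15760 CPM in litter 2 and 15600 to 19940 CPM in litter 3. Every litter 1 mouse lay above every mouse of the other litters.

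Several other measures differed between the litters. Rod markers summed to 331 to 458 CPM in litter 1 and 558 to 4566 CPM in litter 2, and every litter 2 mouse lay above every litter 1 mouse, also without OSM mouse 5, which had the highest sum. Red cell markers summed to 136 to 415 CPM in litter 1 and 543 to 1128 CPM in litter 2, again without overlap, and all 5 had an unadjusted p under 0.05 for litter (edgeR, lowest adjusted p = 0.0783). Endothelial markers summed to 13580 to 15080 CPM in litter 1 and 11560 to 14810 CPM in litter 2 and overlapped. Taken singly, Pecam1, Kdr and Cdh5 had an unadjusted p under 0.05 for litter, and the other endothelial markers did not. The lowest adjusted p among them was 0.0783, for Pecam1 (edgeR). Transcript length also moved with litter. Among other genes at or above 10 RPKM, the median log2 difference between litter 2 and litter 1 was -0.13 for the 1353 with a longest transcript of 4 kb or more and 0.11 for the 2093 with a shorter one, against -0.56 for the 15 members at that level. Of those 15 members, all but Sparc (2543 bases) had a longest transcript of 4 kb or more. The part of length, of other cells and of the OIR run in the members' difference, and in its absence in Sparc, was not tested.

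The sequences before the start of 3 genes that were fitted lower in litter 2 (Lamb1, Lamb2 and Nid1) and of Sparc, which was not, are shown for comparison. RefSeq promoter sequences (table build GRCm38.p6) were matched for 27 of the 43 members. The members without an entry included Itgb2, Nid2, Lama3, Fn1, Lamc3, Itga6, Lama1, Lamc1, Itga7, Itgb3, Itgae, Itgal, Itgb4, Itgad and Lama4. The 250 bases before each RefSeq start are printed 5′ to 3′ on the gene's strand, with positions from their single exact match in GRCm39, and capitals mark the GC box GGGCGG on either strand. GENCODE begins some transcripts of all 4 genes further upstream.
Lamb1, chr12:31315042-31315291, plus strand: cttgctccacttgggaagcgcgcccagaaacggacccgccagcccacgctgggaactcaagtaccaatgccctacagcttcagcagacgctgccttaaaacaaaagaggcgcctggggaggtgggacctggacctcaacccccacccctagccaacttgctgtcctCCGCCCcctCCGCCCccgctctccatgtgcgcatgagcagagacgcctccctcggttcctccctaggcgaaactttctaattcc
Lamb2, chr9:108356811-108357060, plus strand: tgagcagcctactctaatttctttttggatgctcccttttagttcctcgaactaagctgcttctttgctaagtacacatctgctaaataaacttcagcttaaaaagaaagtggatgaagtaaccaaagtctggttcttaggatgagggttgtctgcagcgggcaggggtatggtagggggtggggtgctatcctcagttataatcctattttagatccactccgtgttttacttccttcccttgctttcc
Nid1, chr13:13611937-13612186, plus strand: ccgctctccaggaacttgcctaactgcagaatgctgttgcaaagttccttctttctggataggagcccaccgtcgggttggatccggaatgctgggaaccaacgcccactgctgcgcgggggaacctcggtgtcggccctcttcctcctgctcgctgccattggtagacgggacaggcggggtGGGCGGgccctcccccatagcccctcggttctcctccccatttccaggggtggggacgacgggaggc
Sparc, chr11:55310907-55311156, minus strand: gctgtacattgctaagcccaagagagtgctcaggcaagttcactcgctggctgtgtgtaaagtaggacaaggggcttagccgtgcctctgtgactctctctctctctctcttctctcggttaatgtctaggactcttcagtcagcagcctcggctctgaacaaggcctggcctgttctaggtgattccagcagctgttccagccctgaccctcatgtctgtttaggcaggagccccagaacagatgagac
The window of Lamb1 held 2 GC boxes, that of Nid1 held 1, and those of Lamb2 and Sparc held none. The GC content was 62.0% for Lamb1, 64.4% for Nid1, 54.0% for Sparc and 43.6% for Lamb2. Over all promoters of the table, the same window held a GC box in 32.7%, and in 13 of the 31 windows of members. The CCAAT box (CCAAT on either strand) was in 33.8% of all windows and in 5 of 31 of members, among them Lamb1 and Nid1. The letters TATAAA were in 12.4% of all windows and in none of members. The STAT motif TTCNNNGAA was in 7.02% of all windows and in 2 of 31 of members, 1 of them Lamb2. These matches describe the letters in the window only.

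Several counts have a limit set by neighbouring genes. Reads that fell on exons of more than 1 gene were left out of the authors' counting, and 67.4% of the exon length of Itgam, 33.5% of that of Itga10, 20.8% of that of Itga4, 20.6% of that of Itgad, 14.9% of that of Itgb4, 13.4% of that of Itga1 and 11.8% of that of Nid2 overlapped another gene in the annotation used here. The levels of these 7 genes may therefore be too low relative to the others.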

How the data were processed

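Poly(A) RNA of cells sorted from 11 mice was reverse transcribed, and the cDNA was PCR-amplified and read from 1 end, with no molecular identifiers. The authors aligned the reads to GRCm39 with STAR and counted them with featureCounts, leaving out reads on several genes or places. The deposited values are raw counts for 55359 genes, of which 54749 are in the annotation used here (GENCODE vM39). File headers of PBS mice 10 and 11 carry other mouse numbers, and the sample titles were used.

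edgeR 4.0.16 (R 4.3.3) was run with TMM, filterByExpr (minimum count 10), a robust quasi-likelihood fit with litter and treatment as terms, and Benjamini-Hochberg adjustment over the 17050 genes kept (threshold 0.05), after a check on simulated data. The interaction had a model of its own. RPKM used the union of exons, and differences within litters are of mean log2(CPM + 0.5). DESeq2 1.42.0 without filterByExpr was an alternative, as were other size factors, no filter, no robust estimation, no litter term, and leaving out mice or litters. DESeq2's default filtering was left on. Of 28940 genes fitted it gave an adjusted p to 22207 for treatment and to 14352 for litter and for the interaction.

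All 43 members are in the counts, and 1 of them is not reported here by itself. The highest member of each class and those with unadjusted p under 0.05 for treatment were given for each OSM mouse. Their PBS mice were mostly given as range and median. For the others reported with reads in some mice only, reads were given by mouse, as a range or as a maximum. Fn1, and Lamb1 and Lamc1 by litter, were added after their values were seen. The members and lists were chosen with earlier results of these data known. Cell culture samples were not used here.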

Additional observations from a re-analysis of the deposited data

Results flagged for a closer look

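In 3 of 56 groups tested (28 members in each treatment), 1 mouse lay far from the others of its group by Dixon's ratio of gap to range, and chance alone gives about 1 in 20. Itga7, a laminin-binding alpha chain, was at 0.0105 RPKM in OSM mouse 2, against 0.632 to 2.00 RPKM in the other OSM mice (ratio 0.78). Itgav was at 0.607 RPKM in PBS mouse 8, against 3.00 to 7.25 RPKM in the other PBS mice (ratio 0.645). Itga9 was at 0.405 RPKM in PBS mouse 4, against 1.53 to 3.20 RPKM in the other PBS mice (ratio 0.643). All 3 are alpha chains below 3 RPKM on average, and the cause was not tested.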

How the results depend on the processing

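For OSM against PBS, 0 members were called with DESeq2's size factors in edgeR, without robust estimation, without the litter term and without any 1 mouse or litter. edgeR without the filter called 1 member (Itgav) and DESeq2 called 1 (Itgb2). The 4 members with an unadjusted p under 0.05 became 8 without the filter, 2 without the litter term and 1 without litter 3, and 0 to 6 when 1 mouse was left out. The median log2 difference of the members stayed negative in every alternative run, between -0.24 and -0.09. Itgb2, with DESeq2, had a log2 difference of 8.33 and an adjusted p of 0.00485.

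For litter, no call became 13 called members without the filter and 10 with DESeq2, and 0 to 2 when 1 mouse was left out (2 without PBS mouse 8). The 13 members with an unadjusted p under 0.05 became 21 without the filter, 15 with DESeq2 and 11 to 16 when 1 mouse was left out. For the interaction, 2 members were called without the filter and 2 with DESeq2. The fits without the filter and with DESeq2 included 43 members, but DESeq2 gives an adjusted p only to genes that pass its default filtering. The cause of the differing calls was not tested. Over all genes, the counts called were 0, 65 and 168 for treatment, 3, 625 and 988 for litter and 0, 305 and 673 for the interaction (main test, no filter, DESeq2).

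Signs turned for differences near 0 or with few reads. Without the litter term, Itgal had a log2 difference of -0.35. When 1 mouse was left out, it ran from -1.91 (without OSM mouse 9) to 4.34 (without OSM mouse 1) for Itgal, from -0.062 (OSM mouse 6) to 0.19 (OSM mouse 1) for Itga4, from -0.13 (PBS mouse 7) to 0.023 (PBS mouse 4) for Itgb1 and from -0.00031 (OSM mouse 9) to 0.077 (OSM mouse 6) for Sparc. The counts of members at or above 1 RPKM (26 to 28) and of neighbours that differed in level (14 to 16) kept within 1.5 times of the main value in every alternative. No paired analysis was possible because the mouse numbers are not shared between treatments.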
